A study of Mus musculus with 12 samples.

Results

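The genes described here are 8 widely expressed genes that are known from earlier work to be kept silent in pancreatic β-cells, and are for that reason called disallowed. They were Ldha, Slc16a1, Hk1, Acot7, Oat, Igfbp4, Mgst1 and Cxcl12, taken from that general knowledge and not from a value measured in these samples. Earlier results of these data were known when they were chosen. All 8 were found among the 31055 genes of the single-cell matrices and among the 45808 genes of the bulk table.

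The study characterised the γ-cells of the mouse islet, which make pancreatic polypeptide (Ppy), beside α- (glucagon, Gcg), β- (insulin, Ins2) and δ-cells (somatostatin, Sst). In Ppy-YFPi mice, 1 Ppy allele carries the tetracycline-controlled activator rtTA, TetO-Cre supplies the recombinase and R26-STOP-YFP the label, so that cells active at the Ppy locus under doxycycline become YFP+ for good. The mice were on a mixed background, were given doxycycline at 1 mg/ml in the drinking water starting a month before sorting, and were 2 months old, and the YFP+ and YFP- fractions of 2 experiments gave 4 single-cell libraries. Bulk RNA came from 5 γ libraries (YFP+ cells of Ppy-rtTA;TetO-Cre;R26-YFP mice) and 3 δ libraries (YFP+ cells of Sst-Cre;R26-YFP mice, in which Cre follows the Sst locus), also at 2 months, with doxycycline in the labels of both. Whether the mice of the δ libraries were given doxycycline is not clear, as the study names doxycycline or tamoxifen for its bulk lines together. Because rtTA replaces the coding part of 1 allele, all cells from Ppy-YFPi mice, YFP- cells included, carried a single functional Ppy copy, and a YFP+ cell need not still express Ppy. Each single-cell experiment pooled the islets of several mice, and the labels do not tie bulk libraries to animals, so p-values measure the spread between these samples only.

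A disallowed gene is one that most tissues use and that β-cells switch off, because its product would interfere with the coupling of glucose to insulin release. Lactate dehydrogenase A (Ldha) and the monocarboxylate transporter MCT1 (Slc16a1) would divert pyruvate to lactate or let circulating pyruvate and lactate drive insulin secretion, and hexokinase 1 (Hk1) has such a high affinity for glucose that it would blunt the glucose sensing of β-cells. The other members are Acot7, a cytosolic acyl-CoA thioesterase, Oat, the mitochondrial ornithine aminotransferase, Igfbp4, a secreted binding protein for insulin-like growth factors, Mgst1, a membrane-bound glutathione S-transferase, and Cxcl12, a chemokine made by stromal cells.

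In the GRCm38 annotation the 8 genes lie on 6 chromosomes, Ldha at chr7:46841475-46855627 (+ strand), Oat at chr7:132557478-132576398 (-), Slc16a1 at chr3:104638668-104658462 (+), Hk1 at chr10:62268855-62379908 (-), Acot7 at chr4:152178134-152271855 (+), Igfbp4 at chr11:99041244-99054392 (+), Mgst1 at chr6:138140316-138156755 (+) and Cxcl12 at chr6:117168535-117181367 (+). Oat lies within the span of Fgfr2 without sharing exon bases with it, and 157 exon bases of Hk1 are also exon of the antisense gene Hk1os. Ldha has near-identical copies in the genome. Of 36 windows of 98 bases along its transcript, 15 matched elsewhere with at most 2 mismatches, so its counts are less certain than those of the other 7 genes, for which at most 1 window did so.

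The 150 bases before the start sites of 5 members are printed below. Hk1, Oat, Igfbp4 and Acot7 are the genes whose level differed most clearly between the hormone classes. Hk1, Oat and Igfbp4 were highest in Gcg+ cells or in cells with Ppy and Gcg, and Acot7 in Sst+ cells. Ldha is printed as the best known member of the group. The sequences are RefSeq's for GRCm38.p6, where all 8 members matched with 11 start sites in total. They run 5′ to 3′ along each gene's own strand, at chr10:62379909-62380058 and chr10:62340422-62340571 for Hk1, chr7:132576399-132576548 for Oat, chr11:99041094-99041243 for Igfbp4, chr4:152185458-152185607 for Acot7 and chr7:46845654-46845803 for Ldha. Capitals mark matches on either strand to the motif ACGTG (the core bound by hypoxia-inducible factors and by many E-box proteins), to the CCAAT box, to the TATA box in its form TATAAA, or to the GC box in its form GGGCGG.
Hk1 start 1: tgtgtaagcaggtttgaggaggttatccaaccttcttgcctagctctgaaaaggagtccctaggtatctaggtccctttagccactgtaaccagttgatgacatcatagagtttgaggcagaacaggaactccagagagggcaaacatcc
Hk1 start 2: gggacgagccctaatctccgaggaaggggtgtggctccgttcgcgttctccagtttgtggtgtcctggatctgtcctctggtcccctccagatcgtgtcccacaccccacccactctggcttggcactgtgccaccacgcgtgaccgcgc
Oat: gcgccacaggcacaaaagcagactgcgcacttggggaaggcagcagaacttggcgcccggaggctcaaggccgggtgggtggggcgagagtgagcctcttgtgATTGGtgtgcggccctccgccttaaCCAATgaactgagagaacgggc
Igfbp4: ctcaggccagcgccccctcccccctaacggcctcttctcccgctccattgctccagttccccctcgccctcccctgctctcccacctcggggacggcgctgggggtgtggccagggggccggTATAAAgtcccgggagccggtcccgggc
Acot7: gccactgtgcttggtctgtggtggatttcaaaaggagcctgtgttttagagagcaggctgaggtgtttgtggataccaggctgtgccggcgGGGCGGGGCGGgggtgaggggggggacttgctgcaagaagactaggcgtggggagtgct
Ldha start 1: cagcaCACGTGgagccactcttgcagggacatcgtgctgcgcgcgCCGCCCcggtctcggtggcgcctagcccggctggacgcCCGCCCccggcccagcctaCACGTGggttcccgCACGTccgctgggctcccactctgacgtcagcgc
The printed Ldha window held 5 matches to ACGTG, of which CACGTG gives 1 on each strand, and no other member held any, against 11.18% of all 32851 promoters of this length. The window of Ldha start 2, at chr7:46846932-46847081, is not printed and held none of the 4 motifs. CCAAT was found in Oat alone with 2 matches (24.5% of all promoters), TATAAA in Igfbp4 alone (7.57%), and GGGCGG in 5 members, namely Ldha, Slc16a1, Acot7, Mgst1 and Cxcl12 (28.62%). Neither Hk1 window held any of the 4 motifs, so Hk1, Oat and Igfbp4 shared none of them. These matches describe the letters of the windows only.

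The single-cell matrices held 5982 cells, with 10683494 to 18330975 unique molecular identifiers (UMIs, one per captured mRNA molecule) and a median of 4237 to 8338 per cell in each library. Different libraries shared 19 barcodes, which covered 39 cells. After 128 putative doublets and 682 cells of clusters led by stromal, endothelial or acinar genes had been removed, cells were classed by hormone, and UMIs were summed per class and experiment. The monohormonal classes held 1458 Ppy+, 617 Gcg+, 528 Ins2+ and 238 Sst+ cells. The YFP+ libraries supplied 1448 of the Ppy+ cells, and the YFP- libraries 1382 of the 1383 cells in the other 3 classes, so γ-cells and the others were hardly ever drawn from the same library. In a fit with the library as a block, cells with Ppy and a second hormone alone set the difference between fractions. These cells also differed by fraction. In experiment 1, α-cell markers of cells with Ppy and Gcg summed to 165950 CPM in YFP+ and 312640 CPM in YFP- cells. Such a block therefore cannot tell library from cell class. All 10 β-cell markers, Ins1, Iapp, Slc2a2 and Mafa among them, were higher in Ins2+ cells than in each other monohormonal class. The 7 hormone genes took 70.5% to 74.8% of all UMIs in Ins2+ cells against 22.9% to 53.3% in the other 3 classes. Levels below are counts per 1e6 UMIs of the class (CPM), and fold changes are those of the fit, which corrects for this composition by TMM scaling. Poisson intervals, floors and limits from a count of 0 cover counting error only. A fold given as at least a value sets the class with 0 UMIs to a floor of 3. It takes the count of the other class as exact, without its counting error.

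No Hk1 UMI was counted in Ins2+ cells. Of 528 Ins2+ cells, at a median of 22489 UMIs per cell, 0 held an Hk1 UMI, which allows a share of up to 0.568% of cells with a UMI and sets no limit on cells that express the gene below detection. In Gcg+ cells 24 UMIs were counted in each experiment (8.82 and 10.0 CPM), and in Ppy+ cells 29 and 30 UMIs (4.93 and 5.58 CPM). Both α- and γ-cells thus held Hk1 mRNA in both experiments, at levels that did not overlap with the 0 of Ins2+ cells. Set against a floor of 3 UMIs over the class, Hk1 was at least 17.1-fold lower in Ins2+ than in Gcg+ cells (adjusted p = 2.44e-07, edgeR's quasi-likelihood test) and at least 12.6-fold lower than in Ppy+ cells (adjusted p = 1.10e-06). Of 6723 genes with 48 or more UMIs in Gcg+ cells, 13 had 0 in Ins2+ cells, Hk1 among them. Of 7716 genes with 59 or more UMIs in Ppy+ cells, 19 had 0 in Ins2+ cells, again with Hk1. These cutoffs are the counts of Hk1 itself, and genes with more UMIs are less likely to give 0. The 2 counts therefore describe Hk1 and do not test how rare its pattern is.

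Sst+ cells also gave 0 Hk1 UMIs, but over 238 cells with a median of 3686.5 UMIs, which allows up to 1.26% of cells with a UMI and, at 3 UMIs over the class, a level of 3.45 CPM. Even so, Hk1 was at least 3.68-fold higher in Gcg+ than in Sst+ cells (adjusted p = 0.00244) and at least 2.71-fold higher in Ppy+ than in Sst+ cells (adjusted p = 0.00879). The second of these calls did not hold with the library as a block (adjusted p = 0.096) or in DESeq2 (adjusted p = 0.0613). Gcg+ and Ppy+ cells did not pass the test against each other (adjusted p = 0.394). Among related enzymes, Hk2 was at 0 in all 4 monohormonal classes.

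Oat was highest in α-cells. It gave 68 and 78 UMIs in Gcg+ cells (25.0 and 32.5 CPM), 41 and 49 in Ppy+ cells (6.97 and 9.11 CPM), 8 and 1 in Ins2+ cells (0.77 and 0.77 CPM) and 0 and 2 in Sst+ cells (0 and 5.86 CPM). The order Gcg+, Ppy+, Ins2+ held in both experiments with no overlap, while Sst+ cells lay too close to the floor to be placed. Oat was lower in Ins2+ than in Gcg+ cells (log2 fold change -3.98 ± 0.40 SE, adjusted p = 1.66e-09) and than in Ppy+ cells (-2.55 ± 0.46, adjusted p = 4.38e-05). It was also lower in Ppy+ than in Gcg+ cells (-1.43 ± 0.24, adjusted p = 4.02e-05), a call that did not hold with the library as a block (adjusted p = 0.148). Of 2721 genes with 146 or more UMIs in Gcg+ cells, 11 had 9 or fewer in Ins2+ cells, Oat among them. Both cutoffs are the counts of Oat itself, so this describes Oat and does not test how rare its pattern is.

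Igfbp4 was highest in α-cells by a wide margin. Gcg+ cells held 51 and 34 UMIs (18.7 and 14.2 CPM), against 6 and 3 in Ins2+ cells (0.58 and 2.31 CPM), 2 and 7 in Ppy+ cells (0.34 and 1.30 CPM) and 0 and 1 in Sst+ cells. No experiment of another class reached the lower of the Gcg+ values. Igfbp4 fell by 3.36 ± 0.54 on the log2 scale from Gcg+ to Ins2+ cells (adjusted p = 8.85e-06) and by 3.90 ± 0.50 from Gcg+ to Ppy+ cells (adjusted p = 4.61e-07), where it stayed called with the library as a block (-2.59, adjusted p = 0.0349). Against Sst+ cells the pooled ratio was 19.6, with a 95% counting interval of 3.42 to 781 because Sst+ cells held 1 UMI (adjusted p = 0.00396). This last call did not hold in DESeq2 (adjusted p = 0.101).

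Acot7 was highest in δ-cells. Sst+ cells gave 14 and 6 UMIs (26.5 and 17.6 CPM), and the other classes gave 0 and 2 (Ins2+), 1 and 4 (Gcg+) and 2 and 2 UMIs (Ppy+), none above 1.67 CPM. The lower Sst+ value thus lay well above every value of the other monohormonal classes. The ratio of Sst+ to Ins2+ cells was 46.4 with a counting interval of 11.3 to 409, which rests on 2 UMIs in Ins2+ cells (log2 fold change of Ins2+ minus Sst+ -5.21 ± 0.95, adjusted p = 0.000132). Acot7 was also lower in Ppy+ (-5.02 ± 0.82, adjusted p = 3.91e-05) and in Gcg+ cells (-4.05 ± 0.80, adjusted p = 0.000434) than in Sst+ cells. Between Ins2+ and Gcg+ cells (adjusted p = 0.552) it did not pass the test, at 2 against 5 UMIs.

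Ldha was sparse in all hormone classes and differed between the experiments. Ins2+ cells held 5 and 11 UMIs (0.48 and 8.48 CPM), Gcg+ cells 4 and 28 (1.47 and 11.7 CPM), Sst+ cells 4 and 6 (7.58 and 17.6 CPM) and Ppy+ cells 1 and 1 (0.17 and 0.19 CPM). In the 3 classes of the YFP- libraries experiment 2 was higher, and Ins2+ and Gcg+ values overlapped (adjusted p = 0.855). Ppy+ cells lay below all of them. Ldha was higher in Ins2+ than in Ppy+ cells (ratio 12.5, counting interval 2.94 to 112, log2 fold change 4.20 ± 0.93, adjusted p = 0.00057), and lower in Ppy+ than in Gcg+ cells (-4.38 ± 0.82, adjusted p = 0.000159) and Sst+ cells (-5.003 ± 1.04, adjusted p = 0.000789). None of these 3 calls held with the library as a block, where the log2 fold changes were 0.84, -0.84 and -1.48 (adjusted p = 0.649, 0.784 and 0.606). As that block rests on cells with Ppy and a second hormone, it cannot tell library from class here.

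The library moved together with the Ldha values. Over all cells Ldha stood at 28.3 and 131 CPM in the YFP- libraries and at 1.46 and 2.95 CPM in the YFP+ libraries. The summed level of 18 immune marker genes was 51 and 52 CPM in the YFP+ cells of the Ppy+ class, and 358 to 935 CPM in the YFP- cells of the Ins2+, Gcg+ and Sst+ classes. In experiments 1 and 2, Ppy+Gcg+ cells had 487 and 7130 CPM in YFP- and 206 and 98 CPM in YFP+ libraries. Ppy+Sst+ cells had 648 and 1958 CPM in YFP- and 134 and 108 CPM in YFP+ libraries. These cells help set the library block. Their Ldha UMIs were 0 and 9 (YFP-) and 3 and 1 (YFP+) in Ppy+Gcg+ cells. In Ppy+Sst+ cells they were 3 and 7 (YFP-) and 2 and 2 (YFP+). The part of the immune markers in the Ldha result was not tested.

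Slc16a1, the lactate and pyruvate transporter, was near the limit of detection. Ins2+ and Sst+ cells held 0 UMIs in both experiments, Gcg+ cells 2 and 1, and Ppy+ cells 5 and 6 (0.85 and 1.12 CPM). Slc16a1 failed the filter on low counts and was not tested in the main fit. Without the filter, Ins2+ against Ppy+ cells did not pass (adjusted p = 0.118, edgeR's quasi-likelihood test). Against a floor of 3 UMIs, the 0 of Ins2+ cells placed it 2.35-fold below Ppy+ cells. That fold takes the 11 UMIs of Ppy+ cells as exact, so a smaller one is possible. Basigin (Bsg), the chaperone that carries this transporter to the membrane, was well covered and was lower in Ins2+ cells (163 CPM ± 13.7, SD, n = 2) than in Gcg+ (580 ± 71.0), Sst+ (844 ± 5.03) and Ppy+ cells (992 ± 45.9). The log2 fold changes were -0.83 ± 0.12, -0.92 ± 0.13 and -2.01 ± 0.12 (adjusted p = 2.62e-06 or less in each).

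Mgst1 and Cxcl12 gave few UMIs in endocrine cells. Mgst1 had 6 and 2 UMIs in Ins2+ cells (0.58 and 1.54 CPM), 1 and 14 in Gcg+ cells (0.37 and 5.84 CPM), 1 and 2 in Sst+ cells and 1 and 0 in Ppy+ cells. Its levels in Ins2+ and Gcg+ cells overlapped (adjusted p = 0.837). It passed the test against Ppy+ cells in Ins2+ cells (log2 fold change 3.73 ± 1.24, ratio 12.5, counting interval 1.68 to 555, adjusted p = 0.0179) and in Gcg+ cells (Ppy+ minus Gcg+ -4.02 ± 1.08, adjusted p = 0.00752), both on 1 UMI in Ppy+ cells. Neither call held in DESeq2 (adjusted p = 0.0934 and 0.118), and with the library as a block Mgst1 did not pass the filter. Cxcl12 gave at most 3 UMIs in any class and experiment and was not tested.

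**Figure D1:**
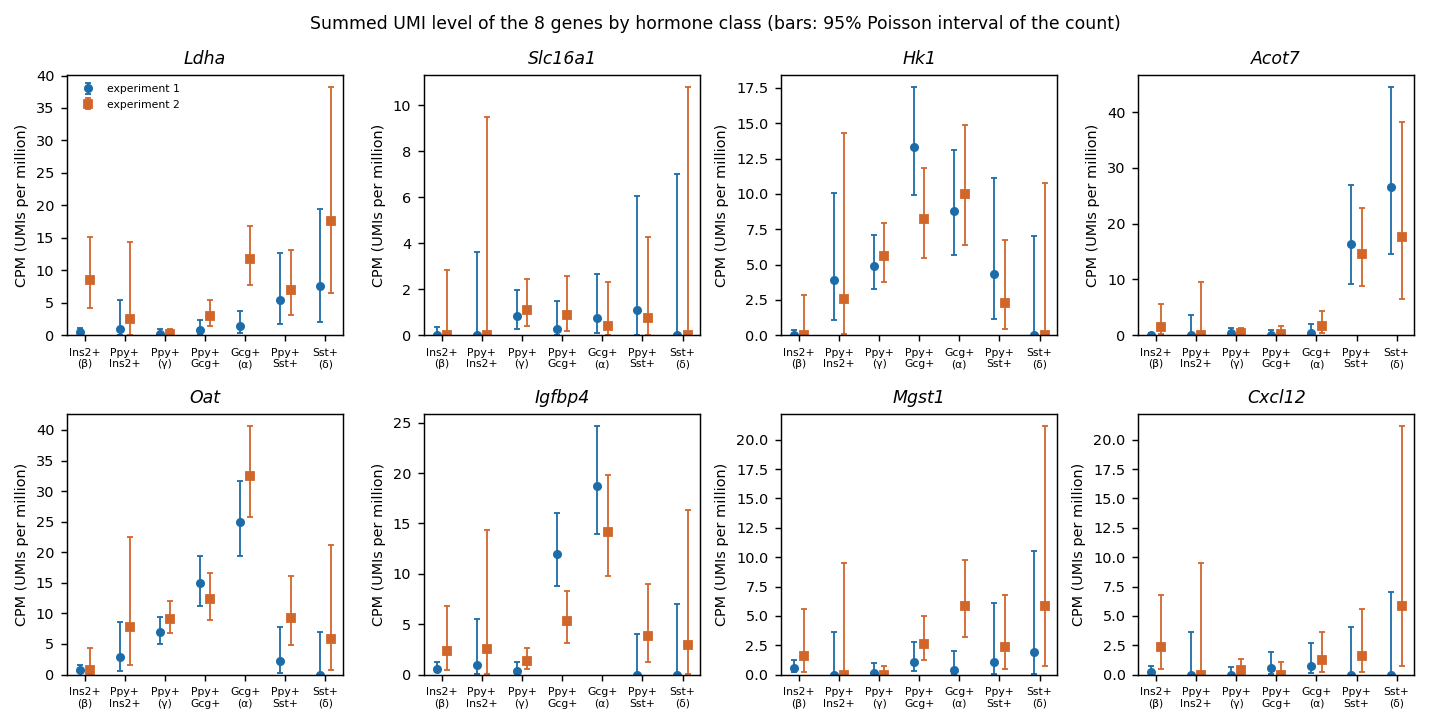
Level of each gene (vertical axes, CPM, with 95% Poisson intervals) in the 7 hormone classes (horizontal axes) of experiments 1 and 2. Hk1 stood at 0 in Ins2+ and Sst+ cells, Oat and Igfbp4 peaked on the Gcg+ side at up to 32.5 and 18.7 CPM, and Acot7 was high only in the classes with Sst.

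Counted over the comparisons, 3 of the 6 members that passed the low-count filter (Hk1, Oat and Igfbp4) were lower in Ins2+ than in Gcg+ cells and 0 were higher, where 10.4% of the 10521 genes tested were lower, 11.8% higher and 22.1% were called in either direction. The median log2 fold change of the 6 was -2.26, against -0.01 over all genes tested. Against Sst+ cells 1 of 6 (Acot7) was lower and 0 were higher (7.17% of all genes lower, 7.65% higher, 14.8% in either direction, members' median -0.16). Hk1 counts among these 6 but had 0 UMIs in both classes, so it has no fold and the median rests partly on an undefined value. Against Ppy+ cells 2 (Oat and Hk1) were lower and 2 (Ldha and Mgst1) higher (12.2% lower, 13.9% higher, 26.1% in either direction, members' median 0.17). The classes that held more of a member than β-cells thus differed from gene to gene, and no member was called lower in Ins2+ cells in all 3 comparisons. Sst+ cells held 0, 2 and 1 UMIs of Hk1, Oat and Igfbp4, so the comparison with them could hardly find these genes lower in Ins2+ cells.

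The comparisons share their class sums, so their calls are not separate evidence. With γ-cells set against the others, 4 of 6 members (Ldha, Oat, Igfbp4 and Mgst1) were lower in Ppy+ than in Gcg+ cells and 0 higher (6.49% of all genes lower, 5.87% higher, 12.4% in either direction). With the library as a block 1 of these 4 calls (Igfbp4) was kept, and DESeq2 kept 2 (Igfbp4 and Ldha). Against Sst+ cells 2 (Ldha and Acot7) were lower and 2 (Oat and Hk1) higher in Ppy+ cells (6.35% lower, 5.05% higher, 11.4% in either direction). Here the library block kept 1 call (Acot7), DESeq2 kept 2 (Acot7 and Ldha) and the fit with no replicate block kept 2 (Acot7 and Hk1), and Oat was lost in each (adjusted p = 0.0801, 0.197 and 0.073). Gcg+ cells differed from Sst+ cells in 4 members, with Oat, Hk1 and Igfbp4 higher and Acot7 lower (5.39% higher, 6.24% lower, 11.6% in either direction), and the ratio of Oat was 16.8 with a counting interval of 4.57 to 140 (adjusted p = 3.06e-05).

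**Figure D2:**
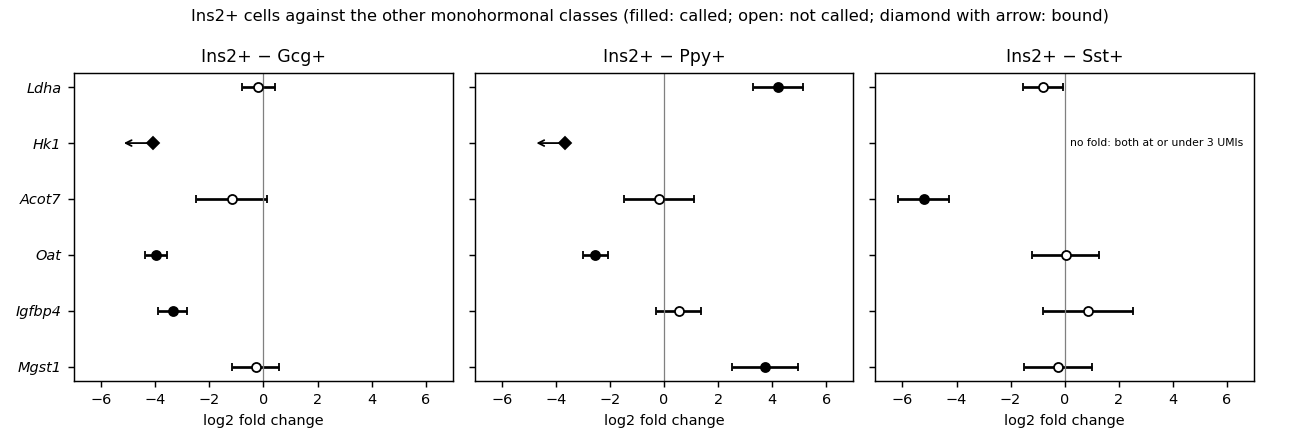
Log2 fold change of the 6 tested genes between Ins2+ cells and the Gcg+, Ppy+ and Sst+ classes (bars, SE of the edgeR fit; filled points were called, open points were not, and a diamond with an arrow is a bound from a count of 0). Filled points and diamonds lie left of 0 for Hk1, Oat and Igfbp4 against Gcg+ cells, for Hk1 and Oat against Ppy+ cells and for Acot7 against Sst+ cells, and right of 0 for Ldha and Mgst1 against Ppy+ cells.

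Ins2+ cells came from 2 clusters, the larger led by Ins1 and G6pc2 and the smaller by Gast, Defb1 and Bace2. Of the members' UMIs in Ins2+ cells, the smaller cluster held 3 of Oat and 1 of Mgst1 and 0 of the other 6. Within that smaller cluster, all cells counted whatever their class, Hk1 differed between the fractions. The 172 YFP+ cells held 16 Hk1 UMIs (8.51 CPM, 95% interval 4.86 to 13.8) and the 129 YFP- cells held 1 (0.56 CPM, 0.01 to 3.14). The intervals did not overlap, while those of Oat (4.26 and 6.77 CPM) and Igfbp4 (2.13 and 2.26 CPM) did. Cells and not samples make up these intervals, so the difference has no replicate test. The fractions also held different classes, as all 88 Ins2+ cells of this cluster were YFP- and 88 of its 100 Ppy+Ins2+ cells were YFP+. The whole Ppy+Ins2+ class held 5 Hk1 UMIs, so most of the 16 lay in YFP+ cells of other classes or of none.

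In the clusters of α- and δ-cells the fractions were alike for the members with most UMIs. In the cluster with high Gcg, Hk1 stood at 10.0 CPM in 85 YFP+ cells and 10.2 CPM in 709 YFP- cells, Oat at 25.8 and 26.8 CPM and Igfbp4 at 17.2 and 16.6 CPM. Ldha and Mgst1 had 0 UMIs in these YFP+ cells against 6.69 and 3.18 CPM in YFP- cells, but the YFP+ intervals reach up to 5.28 CPM and so overlap with both. In the cluster with high Sst, Acot7 was at 24.4 CPM in 130 YFP+ cells and 23.0 CPM in 371 YFP- cells, and Hk1 had 0 UMIs in both.

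**Figure D3:**
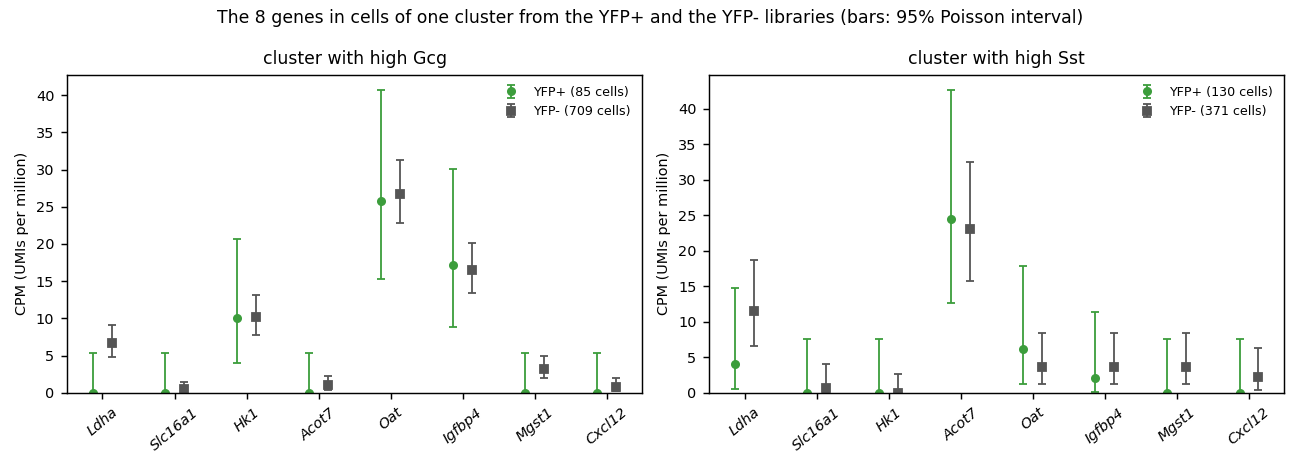
Level of the 8 genes (CPM, with 95% Poisson intervals) in cells of the cluster with high Gcg (left) and with high Sst (right), split into YFP+ and YFP- libraries. The intervals of the fractions overlap for each gene, with Hk1, Oat and Igfbp4 present in both fractions on the left (10.0 and 10.2, 25.8 and 26.8, 17.2 and 16.6 CPM) and Acot7 on the right (24.4 and 23.0 CPM). Overlap of intervals does not show equal levels.

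Bihormonal cells held the members that were highest in the matching monohormonal classes. Unlike those classes, they could lie in any kept cluster, whereas the study left out bihormonal cells in monohormonal clusters. The cluster with high Gcg held 150 of the 754 Ppy+Gcg+ cells, and that with high Sst 251 of the 392 Ppy+Sst+ cells. A cluster led by Defa30 and Defa24 held 104 Ppy+Sst+ cells, 95 of them YFP+. The part of these clusters in the values was not tested. Ppy+Gcg+ cells had 50 and 28 Hk1 UMIs (13.3 and 8.21 CPM), 56 and 42 Oat UMIs (14.9 and 12.3 CPM) and 45 and 18 Igfbp4 UMIs (12.0 and 5.28 CPM). For Oat and Igfbp4 these values lay between those of Ppy+ and Gcg+ cells. Ppy+Sst+ cells held Acot7 at 16.3 and 14.6 CPM, against 26.5 and 17.6 CPM in Sst+ cells, with overlapping Poisson intervals. By fraction, Acot7 stood at 11.8 and 10.0 CPM in YFP+ and at 24.3 and 39.96 CPM in YFP- Ppy+Sst+ cells. Hk1, at 0 UMIs in Sst+ cells, stood at 4.35 and 2.31 CPM (4 and 3 UMIs) in Ppy+Sst+ cells. All 7 of these Hk1 UMIs came from YFP+ cells, and YFP- Ppy+Sst+ cells had 0, as did the Sst+ cells, which were all YFP-. Ppy+Gcg+ and Ppy+Sst+ cells were in no comparison tested here, but their sums entered the fits.

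In the 124 Ppy+Ins2+ cells Hk1 gave 4 and 1 UMIs (3.92 and 2.57 CPM), where Ins2+ cells had 0. These 5 UMIs lay in 3 cells. Oat gave 3 and 3 UMIs, Ldha and Igfbp4 1 in each experiment, and the other 4 members 0. Hk1 was at least 8.40-fold higher than in Ins2+ cells (adjusted p = 0.0123, edgeR's quasi-likelihood test), the sole member of 6 to be called, where 1.55% of all genes were higher, 1.67% lower and 3.22% differed in either direction. Against Ppy+ cells edgeR called 0 of 6 members (4.63% of all genes higher, 2.34% lower, 6.97% in either direction), 0 members had an unadjusted p under 0.05, and DESeq2 called 0. The classes lay in different clusters. Of the 124 Ppy+Ins2+ cells 100 were in the smaller Ins2 cluster, and of the 528 Ins2+ cells 440 were in the larger. All 5 Hk1 UMIs came from YFP+ libraries, which supplied 73 of the 84 Ppy+Ins2+ cells of experiment 1 and 37 of the 40 of experiment 2. The call did not hold with the library as a block (adjusted p = 0.051) or against Ins2+ cells outside the larger cluster (adjusted p = 0.614).

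The 8 bulk libraries, with 7641916 to 31784878 counted reads, showed the same genes at greater depth, in γ against δ only. Sorted fractions hold several cell types, so fewer cells of a type and less RNA per cell cannot be told apart in them. Summed α-cell markers stood at 46340 to 86530 CPM in γ libraries and 2272 to 7293 in δ libraries, summed β-cell markers at 9904 to 21660 and 4209 to 5426, and acinar markers at 2477 to 14150 and 26720 to 112200. The γ and δ libraries were also sequenced on different instruments, paired-end and single-end, which cannot be told apart from the cell type.

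Of the members linked to glycolysis and pyruvate, Hk1 counted 59.1, 56.9, 43.2, 60.3 and 67.4 CPM in γ libraries 1 to 5 and 26.4, 16.1 and 21.6 CPM in δ libraries 1 to 3. The groups did not overlap, at 57.4 ± 8.83 (SD, n = 5) against 21.4 ± 5.15 CPM (n = 3), a log2 fold change of 1.71 ± 0.18 SE (adjusted p = 2.41e-05, edgeR's quasi-likelihood test). Reads from the bases that Hk1 shares with the antisense gene Hk1os cannot be told apart by gene, since strand was not recorded. Slc16a1 counted 6.98, 6.20, 8.08, 5.90 and 4.10 CPM in γ and 3.79, 1.53 and 0.47 CPM in δ libraries, again without overlap (2.00 ± 0.56, adjusted p = 0.0126). Without δ replicate 2 the adjusted p of Slc16a1 was 0.0513. Ldha counted 13.1, 9.64, 26.6, 13.5 and 19.95 CPM in γ and 39.5, 54.3 and 10.4 CPM in δ libraries. The third δ library lay among the γ libraries and the test did not pass (-0.83 ± 0.46, adjusted p = 0.159), whereas without that library it did (-1.28, adjusted p = 0.010).

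Acot7 counted 2.71, 4.15, 5.09, 5.63 and 2.39 CPM in γ and 49.2, 55.4 and 45.2 CPM in δ libraries. Every δ library was far above every γ library, at 49.9 ± 5.14 (SD, n = 3) against 3.99 ± 1.43 CPM (n = 5), and the log2 fold change of γ minus δ was -3.37 ± 0.27 (adjusted p = 2.97e-06). Oat counted 32.0, 37.5, 41.1, 31.6 and 36.9 CPM in γ and 86.8, 48.3 and 42.7 CPM in δ libraries. The groups just failed to overlap, with δ above γ, but the test did not pass (-0.44 ± 0.21, adjusted p = 0.098). In the single-cell sums Oat was higher in Ppy+ than in Sst+ cells, so the 2 assays gave opposite signs for it. The single-cell sign rests on 0 and 2 Oat UMIs in Sst+ cells. That call did not hold with the library as a block or in DESeq2, so neither sign is firm. The first δ library, with the highest Oat, also had the highest acinar marker sum, 112200 CPM, and the part of this in the Oat value was not tested.

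Igfbp4 counted 25.8, 24.3, 127, 39.3 and 40.1 CPM in γ and 6.80, 0.34 and 0.19 CPM in δ libraries, with all γ above all δ libraries (4.84 ± 0.99, adjusted p = 0.00211). In the single-cell sums it did not pass between Ppy+ and Sst+ cells (0.31 ± 1.73, adjusted p = 0.948, edgeR's quasi-likelihood test). There it was highest in Gcg+ cells. The γ libraries held more α-cell markers (46340 to 86530 CPM) than the δ libraries (2272 to 7293), and their part in the bulk value was not tested. Mgst1 counted 5.57, 1.48, 18.4, 2.86 and 5.06 CPM in γ and 67.1, 17.3 and 8.94 CPM in δ libraries, and Cxcl12 counted 5.88, 9.07, 48.4, 8.03 and 12.3 CPM in γ and 46.1, 5.86 and 4.33 CPM in δ libraries. The groups overlapped for both genes, Mgst1 of the third γ library lying among the δ libraries and Cxcl12 of the other 4 γ libraries doing so, and neither passed (adjusted p = 0.0543 and 0.903). That γ library was the highest of the 5 for Igfbp4, Mgst1 and Cxcl12, and its 11 stromal markers summed to 3349 CPM against 528 to 1185 CPM in the other 4. Without it the adjusted p of Mgst1 was 0.00609 (log2 fold change -2.76), and that of Cxcl12 0.388 (-0.76).

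In all, 4 of 8 members were called in bulk, with Hk1, Slc16a1 and Igfbp4 higher in γ and Acot7 higher in δ libraries, where 35.0% of the 17926 genes tested were called (20.7% higher in γ, 14.2% lower). The members' median log2 fold change was -0.15, against -0.06 over all genes.

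**Figure D4:**
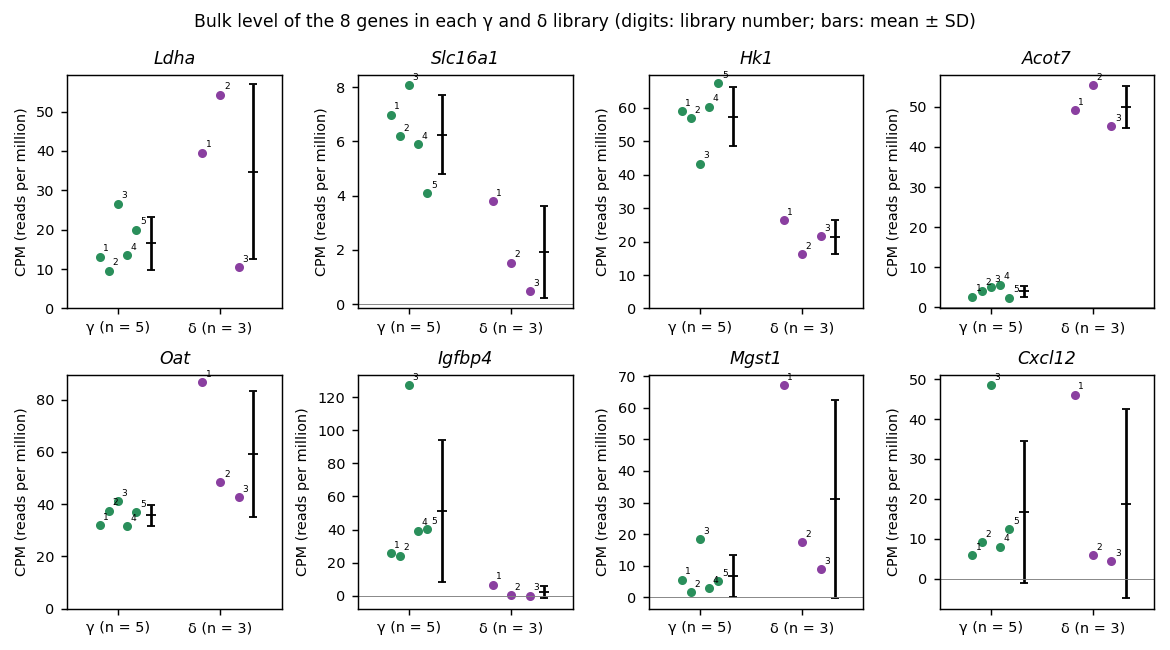
Bulk level (CPM) of each gene in the 5 γ and 3 δ libraries, numbered by library, with the mean and SD of each group. Hk1, Slc16a1 and Igfbp4 stood higher in every γ library and Acot7 and Oat in every δ library, and γ library 3 was the highest of its group for Igfbp4 (127 CPM), Mgst1 (18.4 CPM) and Cxcl12 (48.4 CPM).

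The genes around the members in the same pathways, in lists chosen for their function, moved in both directions in Ins2+ cells. Of 13 glycolytic enzymes, all tested, Eno2 and Pkm were higher and Gpi1 lower in Ins2+ than in Gcg+ cells, Aldoc was lower than in Sst+ cells, and Eno2 was higher and Aldoc lower than in Ppy+ cells. The second lactate dehydrogenase subunit, Ldhb, was counted at 4.46 to 8.32 CPM on average in the 4 classes and was not called in any comparison with Ins2+ cells. Of 10 genes for mitochondrial pyruvate use, pyruvate carboxylase (Pcx), which feeds pyruvate into the citric acid cycle, was higher in Ins2+ cells (12.5 CPM ± 6.72, SD, n = 2) than in Gcg+ (2.70 ± 0.86), Sst+ (1.46 ± 2.07) and Ppy+ cells (2.44 ± 1.35), with log2 fold changes of 3.30, 4.98 and 3.05. Pdk4, a kinase that shuts pyruvate dehydrogenase, stood at 27.2 CPM ± 0.49 in Gcg+ cells and was at 0 in Ins2+ and Sst+ cells. The other 8 of that list did not pass in any comparison with Ins2+ cells.

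Among 6 genes of monocarboxylate transport, MCT2 (Slc16a7) was at 20.7 CPM ± 0.25 in Sst+ cells and at 0 in Ins2+ cells, Bsg was lower in Ins2+ cells in all 3 comparisons, and Emb, which encodes the related chaperone embigin, was higher than in Gcg+ (log2 fold change 0.93) and Ppy+ cells (0.74). Of 7 acyl-CoA thioesterases, Acot13 was higher in Ins2+ cells in all 3 comparisons and Acot11 against Gcg+ and Ppy+ cells, while Acot7 was lower against Sst+ cells alone. In the ornithine and proline list, Arg1, which makes ornithine, was at 2.65 CPM ± 2.79 in Ins2+ cells, against 41.5 ± 15.6 in Gcg+ and 389 ± 20.5 in Sst+ cells (both called). Igfbp7 was lower in Ins2+ than in Gcg+ and Sst+ cells. Igfbp5 and Igfbp6 were higher in Ins2+ than in Ppy+ cells (log2 fold changes 4.90 and 1.69), at 8.05 CPM ± 9.33 and 3.52 CPM ± 3.75 in Ins2+ cells. Both SDs exceed their means, and almost all cells of these classes came from different libraries. The peroxidase Gpx3 was lower in Ins2+ cells in all 3 comparisons (159 CPM ± 122, against 1266 to 1768). The CXCL12 receptor Cxcr4 was at 0 in all 4 classes. Of 12 further genes described as low in β-cells, 3 passed the filter (Zfp36l1, Cat and Fcgrt), and 1 call was made, Zfp36l1 being higher in Ins2+ cells (3.23 CPM ± 4.16) than in Ppy+ cells, which had 0.

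Across the 14 class sums, with the mean of each experiment removed, Hk1 and Oat had the most similar profiles of any pair of members (Pearson r = 0.871 of log2(CPM + 1)), followed by Oat with Igfbp4 and Ldha with Acot7 (0.796 each) and Ldha with Mgst1 (0.793). Hk1 and Acot7 ran in opposite directions (-0.45). Among the other genes tested, the closest to Hk1 was Gria3 (0.974), to Oat Upk3a (0.952), to Igfbp4 Slc7a8 (0.935), to Ldha Apoc3 (0.945) and to Mgst1 Ube2q2 (0.894), and for Acot7 it was Sst (0.988), which defines 2 of the classes, and then Ly6h (0.983). The sums share libraries and the classes were defined by hormones, so these values describe the profiles only.

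**Figure D5:**
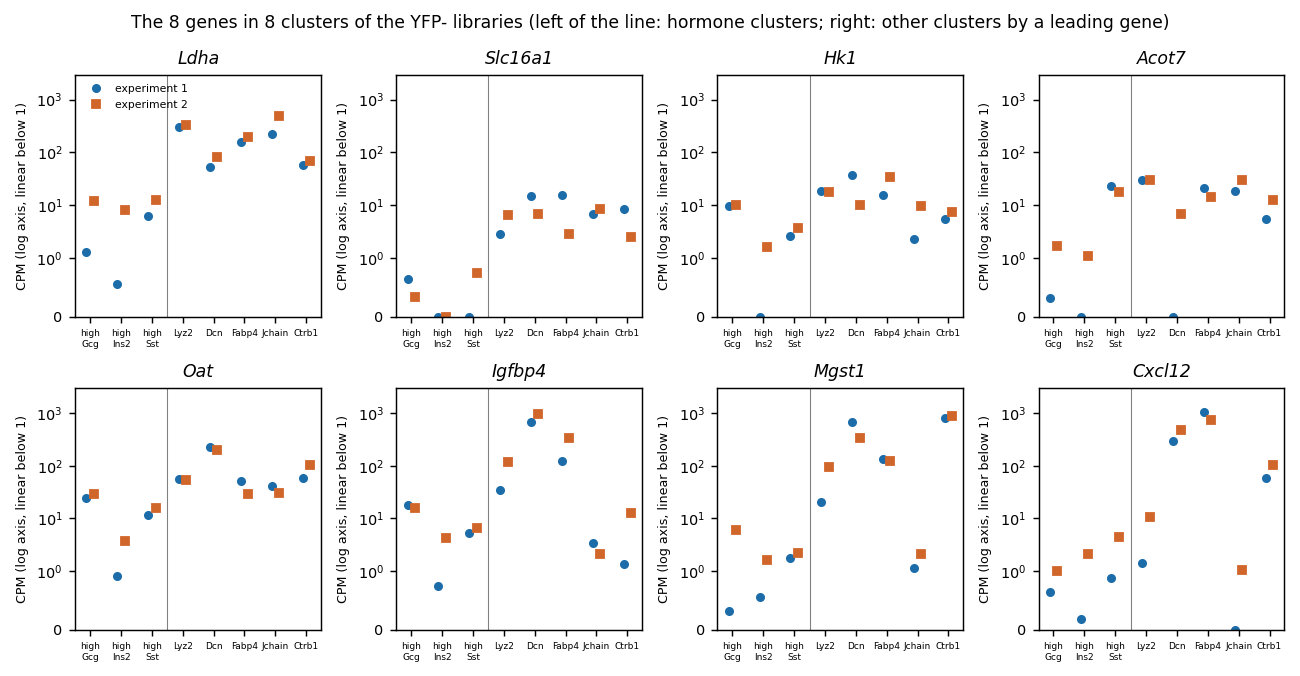
Level of the 8 genes (CPM on a log axis that is linear below 1) in 8 clusters of the YFP- libraries of experiments 1 and 2, 3 with a high hormone gene and 5 named by a leading gene. The non-hormone clusters stood above the hormone clusters for Ldha, at up to 363 CPM over both experiments. The clusters led by Dcn, Fabp4 and Ctrb1 did so for Cxcl12, at 422, 857 and 74.95 CPM.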

How the data were processed

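Cells of 4 single-cell libraries and 8 bulk libraries were analysed. Per the labels and the study's methods, the authors sorted islet cells, loaded them on a Chromium controller with version 2 chemistry, and obtained UMI counts from Cell Ranger, with mm10 plus YFP and rtTA as reference. The deposited matrices hold raw counts of the cells that the authors' filters on genes, UMIs and mitochondrial reads had kept. For bulk, the authors made SMARTer and Nextera XT libraries (unstranded), aligned with STAR 2.7.2b to GRCm38.p6 and counted reads per gene with HTSeq 0.9.1, and the deposited table holds raw counts. It has 6 more columns, not used here.

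Doublets were removed by Scrublet (8 cells, 0.134%, too few for it to have worked) and by a nearest-neighbour score after DoubletFinder (120 cells). Cells were clustered with Seurat 5.3.0, and again after the clusters led by stromal, endothelial or acinar genes were removed; those led by Lyz2 and by Jchain stayed and could hold bihormonal cells, and hormone classes were set by the density minimum of each hormone, monohormonal cells only within clusters of their hormone. UMIs were summed by class and experiment into 14 sums, and edgeR 4.0.16 (TMM, filterByExpr, quasi-likelihood test, experiment as a block) was fitted over all 10521 genes. Calls needed a Benjamini-Hochberg adjusted p no higher than 0.05 together with a change over 0.5 on the natural log scale (0.721 on log2). In bulk, γ and δ libraries were fitted without a block over 17926 genes with a mean of at least 5 counts, called at a log2 fold change of at least 1. Class sums of the 2 experiments deviated together (r = 0.0866 to 0.417 between classes). The scripts were tested on simulated data.

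The 8 genes are all named. Of each list of related genes, the 4 most abundant and those with an adjusted p of at most 0.05 and a log2 fold change of at least 2 in Ins2+ cells were to be named. Other related genes named were chosen after their values were seen, being calls of a list or genes at 0. For each member the 3 genes with the most similar profile were listed, of which the first is given. Members and lists were chosen with earlier results of these data known. Slc16a1 and Cxcl12 did not pass the single-cell filter. One related gene is not reported here. Alternatives with DESeq2 1.42.0 and other scalings, filters, classes and samples are given in the closing section. Intervals are exact Poisson or binomial at 95%.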

Additional observations from a re-analysis of the deposited data

Results flagged for a closer look

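In 5 bulk γ libraries, replicate 3 stood apart from the other 4 for 3 members by Dixon's test at 95%. It had 127 CPM of Igfbp4, 18.4 CPM of Mgst1 and 48.4 CPM of Cxcl12, with gaps of 0.846, 0.759 and 0.849 of the group's range which is past the critical value of the test for 5 samples. Chance flags about 1 in 20 groups, and these 3 values come from 1 library. Its 11 stromal markers summed to 3349 CPM, against 528 to 1185 CPM in the other γ libraries, and their part in these values was not tested.

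Clusters not led by a hormone gene also held the 8 genes in the YFP- libraries, and the highest level of each is given. They were not compared as clusters, but some bihormonal cells of the class sums lay in clusters with no high hormone. Over both experiments, Ldha reached 363.0 CPM in the cluster led by Jchain and Igkc. Igfbp4 reached 855.9 CPM, Oat 208.8 CPM and Slc16a1 9.278 CPM in the cluster led by Dcn and Col3a1. The Slc16a1 value rests on 4 UMIs. The cluster led by Jchain held 14 at 7.723 CPM, so which cluster was highest for Slc16a1 is not settled. Cxcl12 reached 857.1 CPM and Hk1 27.59 CPM in the cluster led by Fabp4 and Rbp7, Mgst1 828.9 CPM in the cluster led by Ctrb1 and Try5, and Acot7 29.7 CPM in the cluster led by Lyz2. The Acot7 value lay within the range of YFP- cells with Sst, at 26.5 and 17.6 CPM in Sst+ and 24.3 and 39.96 CPM in Ppy+Sst+ cells.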

How the results depend on the processing

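The count of members called in Ins2+ against Gcg+ cells was 3 under all 13 alternatives, YFP- libraries alone included. It moved in other comparisons. Without the replicate block it was 2 for Ins2+ against Ppy+ and 2 for Ppy+ against Sst+ cells (4 each with it), and with the library as a block it was 2, 1 and 1 for Ins2+ against Ppy+, Ppy+ against Gcg+ and Ppy+ against Sst+ cells and 0 for Ppy+Ins2+ against Ins2+ cells, with 5 members tested. DESeq2 called 2 in Ppy+ against Gcg+, 2 in Ppy+ against Sst+ and 0 in Ppy+Ins2+ against Ins2+ cells, where 1 member had an adjusted p. Without the cluster requirement Ins2+ against Sst+ cells gave 2. With Ins2+ cells outside the largest Ins2 cluster only, an alternative chosen after seeing the data, Ins2+ against Ppy+ cells gave 1, Ppy+Ins2+ against Ins2+ cells 0, and Ldha, with 0 UMIs there, had a fitted log2 fold change of -1.58 against Ppy+ cells. The cause of these changes was not tested. Thinned to 1000 UMIs per cell no member passed the filter, by the smaller counts, so no value was had.

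In bulk 3 to 6 members were called when single libraries were left out (3 without δ replicate 2, 6 without δ replicate 3), and 4 to 5 otherwise. The replicate block gave 4. The bulk numbers did not pair the samples (r = -0.181, 0.076 and -0.313), and all genes called were 5383 with the block against 6268. Cxcl12, not called, changed sign with upper-quartile normalization (-0.20) and without γ replicate 3, δ replicate 2 or δ replicate 3 (-0.76 to 1.96 over all libraries left out in turn). Upper-quartile normalization moved the median of all genes by -0.30 (log2), and library sizes without hormone genes by 0.29 in Ins2+ against Gcg+ cells.

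Leaving out an experiment kept the sign of all single-cell fold changes reported (for Mgst1 in Ppy+ against Gcg+ cells, -6.40 and -0.65). Over all genes, alternatives called 1073 to 2864 in Ins2+ against Gcg+ (2330 in the report), 650 to 1753 in Ins2+ against Sst+ (1559), 958 to 3508 in Ins2+ against Ppy+ (2745), 387 to 1757 in Ppy+ against Gcg+ (1301), 446 to 1366 in Ppy+ against Sst+ (1199) and 22 to 455 in Ppy+Ins2+ against Ins2+ cells (339), and 433 to 869 in Ppy+Ins2+ against Ppy+ cells (733). With 11 or fewer UMIs of each of 6 members in Ppy+ cells, depth limits what the single-cell comparisons of γ-cells can show.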
